A study of Mus musculus with 40 samples.

Results

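Cpxm2, Cyp2f2, Siglech, Ect2l and Itih2 are 5 mouse genes whose aortic RNA differed between high fat diet and standard fat diet when the effect was averaged over the genotypes. They were chosen by that aortic diet effect, out of 55335 genes in the aortic count table and 55382 in the renal one. Each of the 5 was found in both tables, and 5 of 5 passed the filter on low counts in both tissues, where 15122 and 15943 genes passed. Their aortic diet values are therefore given as a description without a test, while the kidneys, the genotypes and the relation to other cell types were not used to choose them. In the kidneys, Cpxm2 was 2.41-fold higher under high fat diet and Itih2 1.82-fold lower, each opposite in direction to the aorta. The renal Cpxm2 difference was not called once a score of stromal or adipocyte markers was in the model, while that of Itih2 was. The stromal score was itself higher in kidneys under high fat diet, and with it 948 genes in all were called in place of 2615. With the adipocyte score Cpxm2 only just missed the threshold (edgeR adjusted p 0.0530). For Siglech, Ect2l and Cyp2f2 no renal diet effect passed the test. Within the groups of aortas, the level of Cpxm2 rose with a score of stromal fibroblast markers.

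The 5 genes belong to unrelated families. Cpxm2 encodes a secreted protein of the M14 family of metallocarboxypeptidases that carries a discoidin domain and lacks residues needed for catalysis. Itih2 encodes a heavy chain of the inter-alpha-trypsin inhibitor, a plasma proteoglycan made mainly by liver, whose heavy chains are transferred to the matrix polysaccharide hyaluronan. Cyp2f2 encodes a cytochrome P450 monooxygenase known from the secretory cells of mouse airways and from liver, where it oxidises small aromatic compounds such as naphthalene. Siglech encodes a member of the Siglec family of lectins, a family named for binding sialic acid. It marks mouse plasmacytoid dendritic cells, interferon-producing cells of the blood and lymphoid organs, and its protein signals through the adaptor encoded by Tyrobp. Ect2l is named for its similarity to Ect2, a gene needed for the last step of cell division. The mouse aorta has an adventitia with fibroblasts and immune cells and is surrounded by perivascular fat. Per the labels, fat and connective tissue next to the vessel were removed before freezing, so how much of either remained depends on the dissection of each aorta.

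Aortas and kidneys came from C57BL/6-based mice with a floxed Egfr gene and the transgene B6.Cg-Tg(Tek-cre)1Ywa (EC-EGFR-KO, here KO) and from controls that carried Tek-cre without loxP sites (EC-EGFR-WT, here WT), so all groups carried the Cre. Tek-cre is not inducible and is also active in blood-forming cells, which limits the KO as a model of endothelial loss, and the protocol text calls the cross an inducible smooth muscle knockout while naming this Cre. Mice ate a standard fat diet (SFD, 10% of energy from fat) or a high fat diet (HFD, 60%), the latter for 18 weeks from an age of 6 weeks after 7 days of a mixture of both chows. There were 5 libraries for each genotype and diet in each tissue, 20 per tissue, and the sex of the mice and the time of collection were not given in the sources used here.

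Total counts were 17520161 to 36452741 per aorta and 19643033 to 48833447 per kidney. Egfr, counted over the whole gene although its first exon is the floxed part, was at 29.9 to 54.7 CPM (the count relative to a library total scaled by TMM) across all aortas and at 21.7 to 64.5 CPM across all kidneys, with overlapping genotypes, so it could not check the KO label. In each tissue a pair of libraries from different groups was nearly identical. These were the aortas R-1 (WT SFD) and R-12 (KO SFD), with a median chi-square of 0.0263 over genes, and the kidneys a1 (KO HFD) and a12 (WT HFD), with 0.0252, while no other pair came under 1.62. Values without them are given for the diet and genotype effects and for the slopes named with an adjusted p. Aortas R-11 (KO SFD) and R-16 (KO HFD) stood apart in the summed level of the lymphoid markers, at 97.5 and 139 CPM where the other aortas had 3.10 to 21.9 CPM. Genes on chromosomes 9, MT, X and Y and 657 genes at the distal end of chromosome 8 were listed at 0 in every library, so a marker located there carries no information. None of the 5 genes lies in these regions. Smooth muscle markers, led by Acta2 and Myh11, summed to 26000 to 41800 CPM in aortas and 79.9 to 134 CPM in kidneys, and proximal tubule markers to 254 to 379 CPM in aortas and 8670 to 10800 CPM in kidneys, where the aortic sum is nearly all Aqp1 (322 CPM), a water channel that vessels also express.

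In GENCODE M21 (GRCm38), 3 of the 5 genes are on chromosome 7. Cpxm2 (ENSMUSG00000030862) spans chr7:132032687-132154739 on the minus strand, Cyp2f2 (ENSMUSG00000052974) chr7:27119909-27133660 on the plus strand and Siglech (ENSMUSG00000051504) chr7:55768178-55778925 on the plus strand. Ect2l (ENSMUSG00000071392) spans chr10:18128903-18210890 and Itih2 (ENSMUSG00000037254) chr2:10094593-10131396, both on the minus strand. The exons of Cyp2f2 share 274 bases, 13.5% of their length, with Gm15883, an antisense gene. Gm15883 had 4 counts over all 20 aortas but 9654 over all 20 kidneys, and the strand setting of the counting was not given, so renal Cyp2f2 and Gm15883 reads cannot be told apart there. Cpxm2 shares 351 bases, 7.59% of its exons, with the antisense gene Gm15677, which had 4 counts in aortas and 0 in kidneys. Transcripts of other genes, apart from those overlapping genes, were searched for closely similar stretches with megablast, which can miss more distant relatives. For Cpxm2, Cyp2f2 and Itih2 this search found no alignment of 100 bases or more. The best alignment it found for Siglech covered 245 bases of Cyp2d22 at 76.3% identity, and that for Ect2l 105 bases of Zfp60 at 89.5%.

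The promoters printed here are RefSeq windows on GRCm38.p6, from 250 bases before to 50 bases after the gene start, read along the gene's strand. They are shown for Cpxm2 and Itih2, which differed between the diets in both tissues, and for Siglech and Ect2l, which shared a motif. Capitals mark exact matches on either strand to 1 of 5 motifs, which did not overlap each other. The TATA box was searched as TATAAA. The motif known as the CCAAT box was searched by those 5 letters. The GC box that binds Sp family factors was searched as GGGCGG. The E-box bound by basic helix-loop-helix proteins was searched as CACGTG. The nuclear receptor half-site of direct repeats was searched as AGGTCA. Cpxm2 is at chr7:132154692-132154991 (minus), Itih2 at chr2:10130634-10130933 (minus, inside the GENCODE gene), Siglech at chr7:55767934-55768233 (plus) and Ect2l at chr10:18210778-18211077 (minus).
Cpxm2: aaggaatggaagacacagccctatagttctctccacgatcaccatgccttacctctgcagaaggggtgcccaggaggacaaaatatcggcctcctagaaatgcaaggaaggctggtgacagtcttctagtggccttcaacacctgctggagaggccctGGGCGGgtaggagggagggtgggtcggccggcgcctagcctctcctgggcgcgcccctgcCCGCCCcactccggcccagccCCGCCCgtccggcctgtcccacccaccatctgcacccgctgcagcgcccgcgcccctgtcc
Itih2: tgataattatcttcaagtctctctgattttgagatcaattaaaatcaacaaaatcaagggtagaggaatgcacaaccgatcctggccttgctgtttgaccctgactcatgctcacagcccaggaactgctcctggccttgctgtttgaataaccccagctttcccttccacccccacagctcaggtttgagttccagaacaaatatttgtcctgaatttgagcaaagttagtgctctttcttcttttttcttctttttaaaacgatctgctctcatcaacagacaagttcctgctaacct
Siglech: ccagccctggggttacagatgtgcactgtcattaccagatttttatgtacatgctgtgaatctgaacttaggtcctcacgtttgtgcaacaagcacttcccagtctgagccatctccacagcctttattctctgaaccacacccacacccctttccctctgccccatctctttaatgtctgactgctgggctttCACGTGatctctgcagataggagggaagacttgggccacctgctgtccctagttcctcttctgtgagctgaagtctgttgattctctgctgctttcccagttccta
Ect2l: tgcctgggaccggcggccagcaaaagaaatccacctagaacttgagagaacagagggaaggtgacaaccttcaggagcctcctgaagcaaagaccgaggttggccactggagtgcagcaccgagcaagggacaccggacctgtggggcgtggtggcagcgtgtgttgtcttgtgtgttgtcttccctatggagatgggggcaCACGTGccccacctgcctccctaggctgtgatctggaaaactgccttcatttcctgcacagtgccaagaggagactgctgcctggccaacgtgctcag

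The 5 promoters differed in base composition. The Cpxm2 window was 66.0% G or C with 17 CG pairs and held 3 GC boxes, at positions -92, -32 and -11 from the start, a motif found in 35.7% of all 32851 promoters of this length. The Itih2 window was 42.3% G or C with 2 CG pairs and held none of the motifs searched. All promoters had medians of 52.7% and 7 CG pairs. Siglech and Ect2l each held an E-box, at -56 and -48, which 7.15% of all promoters held. In the Cyp2f2 window (chr7:27119705-27120004, plus, 50.3% G or C, 0 CG pairs), a half-site lay at -221, a motif present in 16.3% of all promoters. No member held the TATA box (13.6% of all promoters) or the CCAAT box (37.4%) in this window. A match is a description of the letters and not evidence of binding.

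Per kilobase of exon, Cpxm2 and Itih2 were the most abundant of the 5 transcripts in aortas, with medians of 25.3 and 23.7 CPM per kb over 20 libraries and overlapping ranges (15.9 to 41.5 and 19.2 to 31.7). The other genes lay well below, with no overlap, at medians of 0.810 CPM per kb for Siglech, 0.430 for Ect2l and 0.210 for Cyp2f2, each overlapping the next. The order was different in kidneys, where Itih2 (median 3.03 CPM per kb) and Cyp2f2 (2.84) overlapped at the top, followed without overlap by Cpxm2 (0.393), then Siglech (0.0990) and Ect2l (0.0775). The tissues were normalized separately, so levels were not tested across them.

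**Figure D1:**
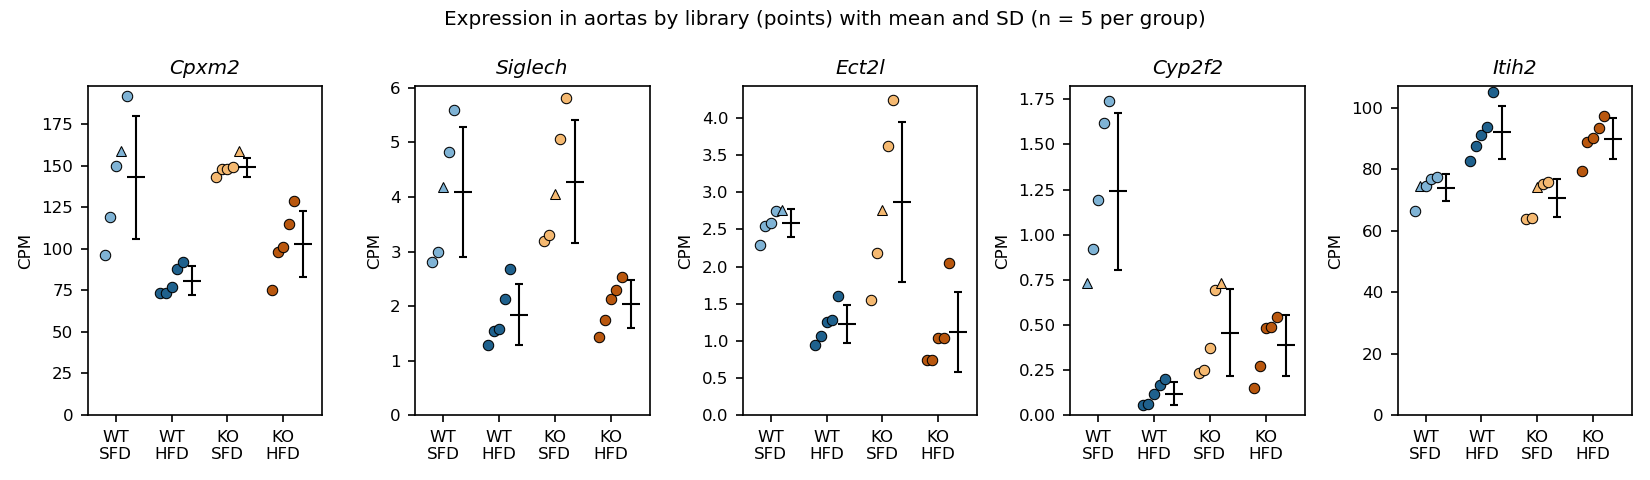
CPM (TMM-scaled, linear axis from 0) of the 5 genes in each aorta, by genotype and diet; points are libraries, triangles the near-identical pair R-1 and R-12, and bars the mean and SD of n = 5. Every HFD library of Siglech (1.28 to 2.67 CPM) lies below every SFD library, every HFD library of Itih2 (79.4 to 105 CPM) lies above, and Cyp2f2 separates the diets in WT but not in KO.

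The effect of HFD on the aorta was what chose the genes. Across all genes tested, 8 of 15122 (0.0529%) had an adjusted p under 0.05 in edgeR's quasi-likelihood test, 7 lower and 1 higher under HFD, and 5 of these 8 are the genes described here. Nothing is read from that count. Itih2 was the last inside the threshold, with an adjusted p of 0.047, and Retn and Bfsp1 were the next outside, both at 0.085. Without R-1 and R-12 the values hardly moved, but the adjusted p-values of the 5 genes were 0.123 to 0.199 and 1 gene in all passed (0.00656%). With a fold over 1.5 and over 5 CPM also asked for, 4 genes passed (0.0265%). The libraries of the diets, 10 against 10, did not overlap for 2 of 15122 genes (0.0132%), which were Siglech and Itih2. The share of all genes whose diets separate within 1 genotype was not counted, so such separations given below are description only.

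Cpxm2 was at 96.3, 119, 150, 159 and 192 CPM in WT SFD aortas and at 73.5, 73.7, 77.3, 87.9 and 92.0 CPM in WT HFD aortas. The KO aortas were at 143, 148, 148, 149 and 159 CPM under SFD and 75, 98.2, 101, 115 and 129 CPM under HFD. Within each genotype every HFD aorta was below every SFD aorta, while KO HFD overlapped WT SFD. The log2 difference was -0.68 (SE 0.11) over both genotypes, -0.82 in WT (95% interval -1.15 to -0.50) and -0.53 in KO (-0.86 to -0.20).

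Siglech, the plasmacytoid dendritic cell lectin, was at 2.81, 3, 4.19, 4.83 and 5.60 CPM in WT SFD aortas and at 1.28, 1.54, 1.58, 2.12 and 2.67 CPM in WT HFD aortas. In KO it was at 3.2, 3.30, 4.05, 5.07 and 5.81 CPM under SFD and 1.43, 1.75, 2.13, 2.29 and 2.54 CPM under HFD. Its diet difference was of nearly equal size in the genotypes, -1.15 in WT (95% interval -1.68 to -0.62) and -1.07 in KO (-1.60 to -0.55) on the log2 scale, and -1.11 (SE 0.18) over both. These levels rest on 22 to 149 counts per library.

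Ect2l was at 2.29, 2.55, 2.59, 2.75 and 2.76 CPM in WT SFD aortas and at 0.937, 1.06, 1.26, 1.28 and 1.61 CPM in WT HFD aortas. KO aortas had 1.55, 2.18, 2.76, 3.63 and 4.25 CPM under SFD and 0.740, 0.747, 1.04, 1.04 and 2.05 CPM under HFD. The diets did not overlap in WT, and in KO the highest HFD library, R-17, reached above the lowest SFD library. The log2 difference was -1.21 (SE 0.21) over both genotypes, -1.07 in WT and -1.35 in KO.

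Itih2, the hyaluronan-binding heavy chain, was the only one of the 5 genes that was higher under HFD, and by the smallest step. It was at 66.5, 74.4, 74.5, 76.9 and 77.5 CPM in WT SFD aortas and at 82.5, 87.4, 91.0, 93.7 and 105 CPM in WT HFD aortas. In KO it was at 63.8, 64.2, 74.1, 75.3 and 75.7 CPM under SFD and 79.4, 88.9, 90.2, 93.4 and 97.4 CPM under HFD. The log2 difference was 0.33 (SE 0.06) over both genotypes, a 1.26-fold difference, with 0.31 in WT and 0.35 in KO.

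Cyp2f2 was the least abundant of the 5 transcripts in aortas. It was at 0.731, 0.922, 1.19, 1.62 and 1.74 CPM in WT SFD aortas (21 to 34 counts) and at 0.0559, 0.0585, 0.117, 0.165 and 0.201 CPM in WT HFD aortas (1 to 4 counts). In KO it was at 0.235, 0.250, 0.372, 0.695 and 0.732 CPM under SFD (5 to 26 counts) and 0.148, 0.273, 0.480, 0.487 and 0.541 CPM under HFD (3 to 13 counts). WT SFD lay above WT HFD without overlap, whereas the KO diets overlapped between those levels. The log2 difference was -1.77 (SE 0.32) over both genotypes, -3.29 in WT (95% interval -4.28 to -2.30, where 2 of 15122 genes, 0.0132%, were called) and -0.25 in KO (-1.13 to 0.62). Without R-1 and R-12 it was -3.43 in WT, where 0.0131% of genes were called, and 0.00 (SE 0.42) in KO. Summed over libraries, WT had 141 counts under SFD and 11 under HFD, a ratio of HFD to SFD per total count of 0.102 (exact 95% interval 0.05 to 0.189), and KO had 58 and 40 counts, a ratio of 0.8 (0.521 to 1.22). Of the 58, 26 came from R-12, and without R-1 and R-12 the ratio was 1 in KO (0.613 to 1.65) and 0.0878 in WT (0.0426 to 0.163). These intervals cover counting error only.

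The interaction of diet and genotype, which did not choose the genes, asked whether the diet effect differed between KO and WT. For Cyp2f2 in aortas the log2 interaction was 3.03 (SE 0.64, 95% interval 1.70 to 4.36), the smallest unadjusted p of 15122 genes (0.000130), but the adjusted p was 1.00 in edgeR's quasi-likelihood test, so it did not pass. Cyp2f2 owed its place among the tested aortic genes to WT SFD, with 21 to 34 counts against 1 to 26 in the other groups. Its interaction, its WT diet difference and its genotype difference under SFD are therefore not independent of the filter, and its rank is description only. Without R-1 and R-12 it was 3.43 with an adjusted p of 0.807 in edgeR. By diet, KO against WT was -1.40 under SFD (adjusted p 1.00) and 1.63 under HFD (adjusted p 0.532) in the same fit, and -1.80 (adjusted p 0.343) and 1.63 (adjusted p 0.256) in edgeR without R-1 and R-12. Under HFD, 4 of 5 KO aortas lay above the highest WT aorta, on 3 to 13 counts in KO and 1 to 4 in WT. How many of all genes separate in this way was not counted. For the other 4 genes the interaction was between -0.28 (Ect2l, 95% interval -1.14 to 0.57) and 0.29 (Cpxm2, -0.16 to 0.75). Across all genes 0 of 15122 (0%) passed in edgeR and 0 in the DESeq2 Wald test, with 127 at an unadjusted p under 0.05.

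Averaged over the diets, none of the 5 genes differed between KO and WT aortas by the edgeR test, where 3 of 15122 genes (0.0198%) were called and 131 without R-1 and R-12. The largest difference was 0.21 on the log2 scale for Cpxm2 (95% interval -0.02 to 0.44, adjusted p 0.627), and the interval for Cyp2f2 was -0.48 to 0.72. Without R-1 and R-12 the 5 differences were -0.09 to 0.22, none called where 0.859% of genes were. In kidneys the genotype differences were -0.29 for Cpxm2 (-0.99 to 0.40), -0.10 for Cyp2f2 (-0.37 to 0.16), 0.03 for Siglech (-0.58 to 0.63), -0.09 for Ect2l (-0.77 to 0.59) and -0.01 for Itih2 (-0.27 to 0.24). Over the whole renal table edgeR called 0 of 15943 genes (0%) and the DESeq2 Wald test 1, while 768 were below 0.05 before adjustment, and without a1 and a12 edgeR also called 0 genes, with 1360 below 0.05 before adjustment. The renal interaction was also not called for any of the 5 genes or for any other gene in edgeR or DESeq2 (0%, with 285 at an unadjusted p under 0.05), and for Itih2 it was -0.01 (95% interval -0.53 to 0.51).

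**Figure D2:**
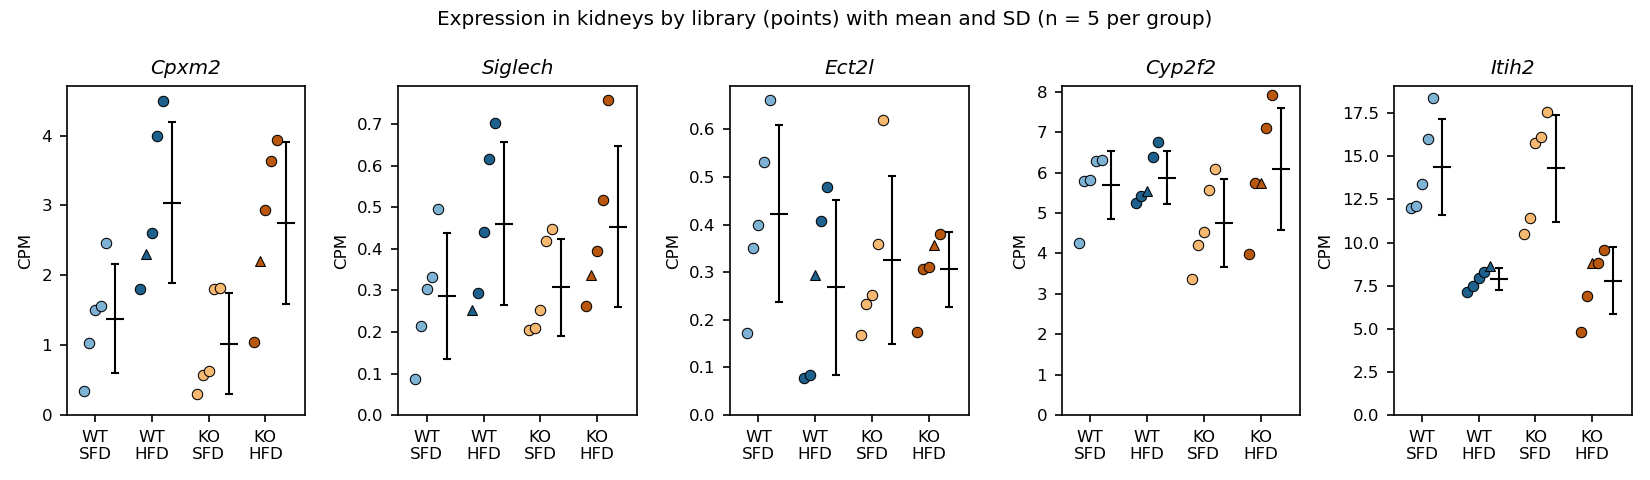
CPM (TMM-scaled, linear axis from 0) of the 5 genes in each kidney, by genotype and diet; points are libraries, triangles the near-identical pair a1 and a12, and bars the mean and SD of n = 5. Itih2 is lower in every HFD kidney (4.81 to 9.59 CPM) than in any SFD kidney (10.5 to 18.4 CPM), and Cpxm2 is higher on average under HFD with overlapping libraries.

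The kidneys provided the test of the diet effect in samples that had not chosen the genes. In edgeR's quasi-likelihood test 2 of the 5 genes were called, where 2615 of 15943 genes (16.4%) were called in all, 1228 higher and 1387 lower. Both of the called genes, Itih2 and Cpxm2, went the other way than in the aorta.

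Itih2 was at 12.0, 12.1, 13.4, 16 and 18.4 CPM in WT SFD kidneys and at 7.12, 7.46, 7.95, 8.28 and 8.66 CPM in WT HFD kidneys. KO kidneys had 10.5, 11.4, 15.8, 16.1 and 17.6 CPM under SFD and 4.81, 6.92, 8.81, 8.84 and 9.59 CPM under HFD. No HFD kidney reached any SFD kidney, which held for 453 of 15943 genes (2.84%). Itih2 fell by 0.87 on the log2 scale (SE 0.13, 95% interval -1.13 to -0.61, edgeR adjusted p 5.19e-05), by 0.86 in WT (edgeR adjusted p 0.00425, where 6.71% of genes were called) and by 0.87 in KO (edgeR adjusted p 0.00386, 6.34%). It was also among the 456 genes (2.86%) called with a fold over 1.5 and over 5 CPM. In edgeR fits without a1 and a12 the change was -0.91 (adjusted p 0.000123, 14.7% of genes called), and it was called in WT (6.8% of genes) and in KO (5.49%).

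Cpxm2 was at 0.350, 1.03, 1.5, 1.56 and 2.46 CPM in WT SFD kidneys and at 1.81, 2.30, 2.6, 4 and 4.5 CPM in WT HFD kidneys. KO kidneys were at 0.304, 0.578, 0.630, 1.80 and 1.82 CPM under SFD and 1.04, 2.21, 2.93, 3.63 and 3.93 CPM under HFD. The libraries overlapped in each genotype. Cpxm2 rose by 1.27 on the log2 scale over both genotypes (SE 0.34, 95% interval 0.56 to 1.97, edgeR adjusted p 0.0129), with 1.12 in WT (adjusted p 0.186) and 1.42 in KO (adjusted p 0.0935), neither called alone. Leaving out any of the 20 kidneys kept it called, at 1.16 to 1.43, and without a1 and a12 it was 1.35 (edgeR adjusted p 0.0155). With the stromal or adipocyte score in the model it was not called, as described with those markers.

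Siglech was barely detected in kidneys, with 2 to 19 counts per library and 0.0875 to 0.496 CPM under SFD (median 0.279) against 0.253 to 0.759 CPM under HFD (median 0.417). The difference was 0.59 on the log2 scale (95% interval -0.02 to 1.19, edgeR adjusted p 0.178), and the libraries of the diets overlapped. Ect2l had 2 to 17 counts, 0.168 to 0.662 CPM under SFD (median 0.354) and 0.0770 to 0.479 CPM under HFD (median 0.308), a difference of -0.36 (-1.04 to 0.32, adjusted p 0.493). For both genes the intervals hold differences of either sign, and without a1 and a12 the values were 0.73 for Siglech (edgeR adjusted p 0.111) and -0.42 for Ect2l (0.49). Cyp2f2 was well above its aortic counts at 77 to 273 per kidney, with 3.36 to 6.31 CPM under SFD (median 5.68) and 3.98 to 7.92 CPM under HFD (median 5.74), a difference of 0.20 (-0.06 to 0.46, adjusted p 0.299). In WT kidneys, where the aortic difference was -3.29, it was 0.04 (95% interval -0.33 to 0.41). Without a1 and a12 the renal difference of Cyp2f2 over both genotypes was 0.22 (edgeR adjusted p 0.311). The antisense gene Gm15883 was at 12.7 to 26.7 CPM in the same kidneys and differed by -0.12 between the diets (-0.33 to 0.09, edgeR adjusted p 0.458).

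**Figure D3:**
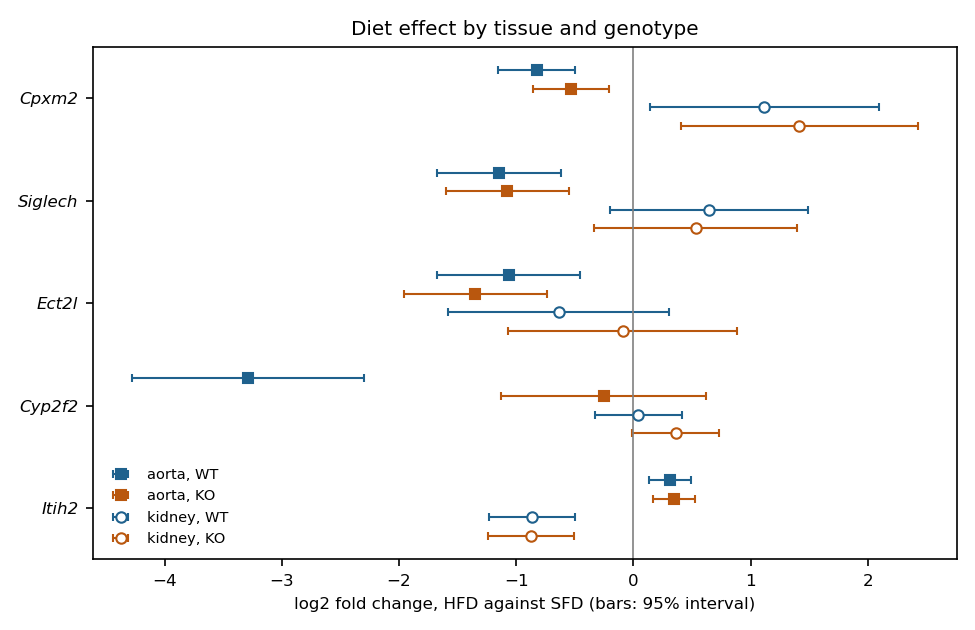
Log2 fold change of HFD against SFD for the 5 genes in aortas (filled squares) and kidneys (open circles), in WT (blue) and KO (orange), with 95% intervals from the edgeR fits of 20 libraries per tissue. Cpxm2 and Itih2 lie on opposite sides of 0 in the 2 tissues, and the WT aortic value of Cyp2f2 (-3.29) stands apart from its other 3 values. The aortic intervals are description only, since the aortic diet effect chose the genes.

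Bulk RNA cannot tell fewer cells of a type from less RNA per cell, so the 5 genes were set beside markers of the cell types that could carry them. Of 18 lists of cell type markers, 1 held a gene called for diet in aortas and 11 in kidneys. Over all genes tested, 0.0529% were called in aortas and 16.4% in kidneys, so nothing is read from these list counts. In aortas 9 of 12 white adipocyte markers were lower under HFD and 1, Cfd, an adipocyte-secreted complement protease, was called, with a median log2 difference of -0.38 where the median over all genes was 0.00. The summed level was 564 to 1100 CPM under SFD and 588 to 967 CPM under HFD, and its most abundant members, Plin4 and Fabp4, differed by 0.09 and -0.09. Of 11 tested stromal fibroblast markers, led by Gsn, Dcn and Serpinf1, 10 were lower and 0 called (median -0.24), and the summed level was 4670 to 9920 CPM against 4940 to 9810 CPM. The lymphoid list had 13 tested genes, 9 higher, 4 lower and 0 called, with Cd3d and Cd3e listed at 0 on chromosome 9.

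For the lectin Siglech the markers of plasmacytoid dendritic cells themselves were scarce. Only 4 of 13 were tested in aortas, all 4 lower under HFD and 0 called (median -0.35), with Lair1 at 3.50 CPM under SFD and 2.19 CPM under HFD and Bst2 at 45.3 and 37.8 CPM. Smim5, the most abundant of the 4, hardly differed, at 70.1 CPM under SFD and 69.2 CPM under HFD (log2 difference -0.03). Lair1 and Bst2 are also expressed by other cells. Irf8, Tlr7, Tlr9 and Ccr9 were listed at 0 because they lie in the regions without counts, and the summed list was 83.4 to 162 CPM under SFD and 85.3 to 161 CPM under HFD. Macrophage markers, another possible source of the lectin, were lower for 6 of 9 and called for 0, with sums of 404 to 779 and 311 to 2420 CPM, the highest in R-16. For Cyp2f2, the airway secretory list had a single tested gene of 9, Cbr2, at 514 CPM under SFD and 502 CPM under HFD, whereas the club cell marker Scgb1a1 was at 0.105 CPM on average over all aortas. Of 9 hepatocyte markers, 2 were tested and 0 called, and Alb was at 0.343 CPM. The mesothelial list had 0 of 7 markers above the filter in aortas.

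Within the 4 groups of aortas, the level of each gene was then fitted against a score, the mean log2 CPM of a list, which takes out diet and genotype. Cpxm2 rose with the stromal fibroblast score by 0.82 log2 units per unit of score (SE 0.12, edgeR adjusted p 0.00115), where 368 of 15122 genes (2.43%) were called for this slope. The slope was 0.75 to 0.86 when any of the 20 aortas was left out. With this score in the model the aortic diet difference of Cpxm2 was -0.51 (SE 0.06) in place of -0.68. Siglech, Ect2l, Itih2 and Cyp2f2 had stromal slopes of -0.00, -0.36, 0.15 and -0.11, none called, with standard errors of 0.38, 0.41, 0.11 and 0.57, and differences between these slopes and that of Cpxm2 were not tested. Without R-1 and R-12 the slope of Cpxm2 was 0.81 (edgeR adjusted p 0.00343).

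Cyp2f2 had a slope of 0.82 on the white adipocyte score (SE 0.26, unadjusted p 0.00498), which did not pass over all genes by edgeR (adjusted p 0.126), where 20 genes (0.132%) did, and was 0.70 without R-1 and R-12 (edgeR adjusted p 0.147). With that score in the model its diet difference was -1.24 (SE 0.31) in place of -1.77, and with the adipocyte, lymphoid and stromal scores together -1.17. For the other 4 genes the adipocyte slopes lay between -0.14 and 0.15 and were not called. No slope on the lymphoid score passed, with values from -0.09 to 0.06, although 4895 genes (32.4%) were called for it and 2 aortas, R-11 and R-16, carried most of the range of that score. With the lymphoid score, or with the plasmacytoid dendritic cell, macrophage or chondrocyte score, chosen after the data were seen, the diet difference of Siglech was at -1.10 to -1.13, Ect2l at -1.19 to -1.33 and Itih2 at 0.33 to 0.37. Cpxm2 was at -0.50 with the plasmacytoid dendritic cell score, -0.63 with the macrophage score and -0.55 with the chondrocyte score. These values, like that with the stromal score, were nearer to 0 than the -0.68 without a score. With the lymphoid score Cpxm2 stayed at -0.68, and with the white adipocyte score it was farther from 0, at -0.76.

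**Figure D4:**
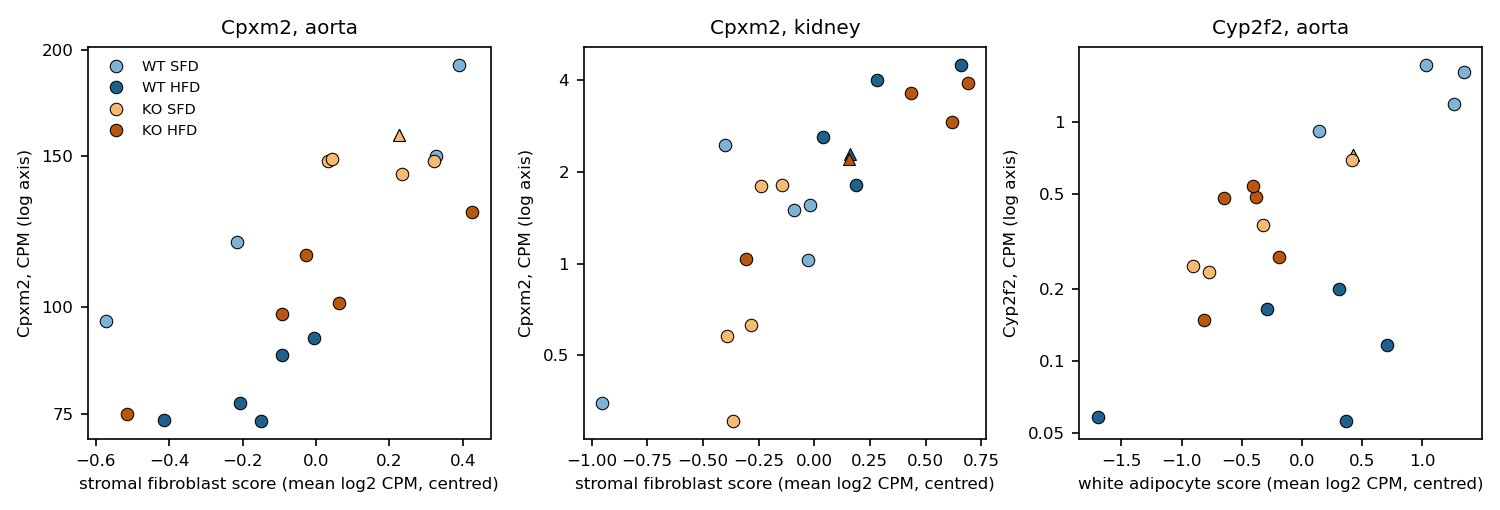
CPM on a log axis against a marker score (mean log2 CPM of the list, centred on 0) for Cpxm2 in 20 aortas and 20 kidneys and for Cyp2f2 in 20 aortas, coloured by genotype and diet; triangles mark the near-identical pairs, which overlie each other. In aortas Cpxm2 climbs with the stromal score within both diets, while in kidneys the higher scores (up to 0.69) and the higher Cpxm2 levels (up to 4.5 CPM) are both in HFD libraries.

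In kidneys stromal markers moved with the diet in the same direction as Cpxm2. Of 11 tested stromal fibroblast markers 10 were higher under HFD and 5 were called, with a median of 0.56 where all genes had 0.00. Over all renal genes 16.4% were called. The called genes, named after their values were seen, were Lum (1.36), Serpinf1 (1.31), Mfap5 (0.92), Dpt (0.87) and Pi16 (0.60). The score ranged from -0.95 to -0.02 under SFD and from -0.31 to 0.69 under HFD. The summed level, dominated by Ly6a, which other renal cells also express, was 645 to 918 CPM under SFD and 704 to 1060 CPM under HFD. With that score in the model the renal diet difference of Cpxm2 was 0.18 (SE 0.40, edgeR adjusted p 0.830), with the adipocyte score 0.94 (adjusted p 0.0530) and with the lymphoid score 1.27 (adjusted p 0.00977). Over all genes, 948 were called with the stromal score, 2042 with the adipocyte score and 2999 with the lymphoid score, in place of 2615 without a score. The renal slope of Cpxm2 on the stromal score within groups was 1.83 (SE 0.53, unadjusted p 0.00260) and did not pass over all genes (edgeR adjusted p 0.165), where 28 genes (0.176%) did, and was 1.80 (adjusted p 0.252) without a1 and a12. Macrophage markers also moved, 8 of 8 higher with 7 called and sums of 48.6 to 105 CPM under SFD and 96.9 to 168 CPM under HFD, and their part in the change of Cpxm2 was not tested.

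The renal fall of Itih2 was called with each score in the model, at -0.80 with the adipocyte score (edgeR adjusted p 0.000261), -0.83 with the lymphoid score (1.73e-05), -0.59 with the stromal score (0.0388) and -0.72 with the 3 together (0.0432). Its own renal slopes were not called, the nearest being -0.48 on the lymphoid score (SE 0.18, edgeR adjusted p 0.0955), where 1034 genes (6.49%) were called, and -0.48 (adjusted p 0.105) without a1 and a12. Siglech rose with none of the renal scores by the same test, and the renal plasmacytoid dendritic cell list, with 8 of 13 genes tested, 4 higher, 4 lower and 1 called, was dominated by Klk1, a kallikrein of the renal tubule at 1470 CPM. Renal adipocyte slopes were not called for any of the 5 genes, where 29 genes (0.182%) were, and that of Cpxm2 was 0.42 (SE 0.14, adjusted p 0.989).

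**Figure D5:**
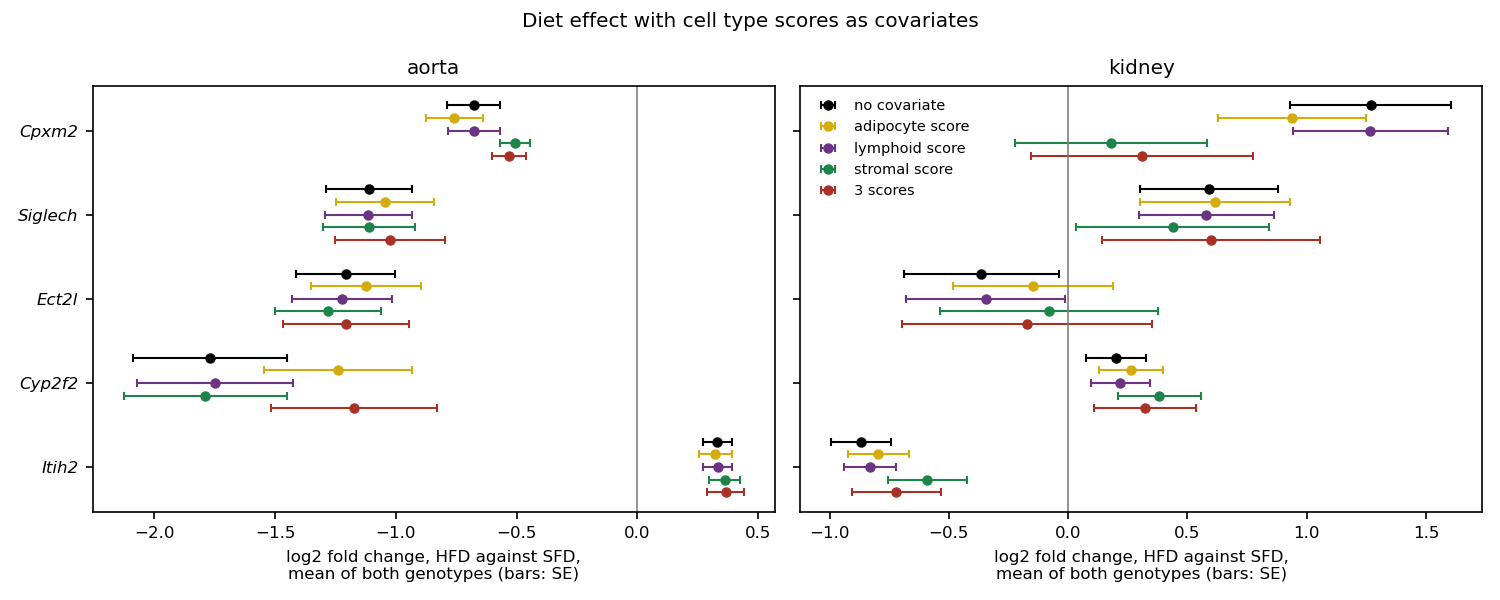
Log2 fold change of HFD against SFD over both genotypes (bars are SE) for the 5 genes in aortas and kidneys, without a covariate and with the adipocyte, lymphoid or stromal score or all 3 in the edgeR model. In aortas all 5 genes keep their side of 0. There Cyp2f2 moves from -1.77 to -1.24 with the adipocyte score, and Cpxm2 from -0.68 to -0.51 with the stromal score and to -0.76 with the adipocyte score. In kidneys Cpxm2 moves from 1.27 to 0.18 with the stromal score while Itih2 stays below 0.

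The transcripts whose aortic levels varied most like each gene within the groups, over 18 aortas without R-1 and R-12, differed from gene to gene. For Cpxm2 they were Pdgfrl (Pearson r 0.93), the matrix gene Fbln1 (0.92) and Smoc2 (0.90). These differed between the diets by -0.17, -0.20 and -0.15 on the log2 scale. Cpxm2 differed by -0.68, but it was chosen by that difference, so nothing is read from the contrast. For Siglech they were the pseudogene Gm43555 (0.86), Lmo4 (0.72) and Il17rb (0.72), and for Itih2 Ppt1 (0.78), Tm9sf4 (0.77) and Ccz1 (0.75). For Ect2l they were D2hgdh (0.76), Strn4 (0.74) and Gigyf1 (0.74), and for Cyp2f2 Gm42727 (0.80), Rps6kl1 (0.75) and Hebp2 (0.75). These are descriptions over libraries that share depth and tissue composition, and with counts as low as those of Cyp2f2 they carry little weight.

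The other genes of the families and pathways were counted in both tissues. Over all genes, 0.0529% were called for diet in aortas and 16.4% in kidneys, so the counts called per list are description only. In aortas, of 6 tested M14 carboxypeptidases of the N/E group 0 were called, and Cpxm1, the closest relative of Cpxm2, differed by -0.09 (SE 0.14) with 60.0 CPM under SFD and 56.5 CPM under HFD. In kidneys 2 of 6 tested were called, Cpn1, the plasma carboxypeptidase N subunit, higher by 0.76 (SE 0.09, edgeR adjusted p 2.84e-06) and Cpe, which processes prohormones, at -0.50 (SE 0.09, adjusted p 0.000879). Of the inter-alpha-inhibitor and hyaluronan genes, 0 of 11 tested in aortas and 0 of 8 in kidneys were called. Itih1, the heavy chain gene that pairs with Itih2 in plasma, differed by -0.32 in kidneys (SE 0.13, edgeR adjusted p 0.111) and did not pass the filter in aortas.

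Around Cyp2f2 on chromosome 7, 2 of 12 listed Cyp2 genes were tested in aortas with 0 called. In kidneys, where 16.4% of all genes were called, 3 of 6 tested were called, all lower. They were Cyp2b10 (-1.71, SE 0.31), Cyp2a5 (-1.37, SE 0.33) and Cyp2a4 (-0.51, SE 0.14), with edgeR adjusted p-values of 0.000606, 0.00843 and 0.0168, whereas Cyp2f2 was at 0.20. Cyp2a4 and Cyp2a5 are near-identical paralogs whose reads may be divided between them. On a list of enzymes and receptors of xenobiotic metabolism, which also holds the electron donor Por and the receptors Ahr and Nr1i2, 1 of 11 tested was called in aortas, Cyp2e1, an ethanol-inducible P450, at -3.18 (SE 0.39), lower under HFD as Cyp2f2 was. In kidneys 6 of 12 were called, 3 higher and 3 lower, among them Aldh1a1 (1.45, SE 0.13), Cyp2e1 (-0.89, SE 0.09) and Gstm1 (-0.83, SE 0.09). Of the Siglec family and its adaptors 0 of 6 tested were called in aortas, where Tyrobp, the Siglech adaptor, differed by 0.03 (SE 0.32), while in kidneys 8 of 8 were higher and 2 called, Tyrobp (0.64, SE 0.13) and the macrophage lectin Siglec1 (1.24, SE 0.30).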

How the data were processed

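RNA of 20 aortas and 20 kidneys was analysed, 5 per genotype and diet. The authors deposited counts per gene, unnormalized whole numbers, which per the labels came from mapping to mm10 with HISAT2 2.1.0 and counting with featureCounts (the methods name TopHat2 as the mapper). Strand setting and treatment of reads with several positions were not given in the sources used here. Groups came from the labels. For each tissue a single model over its 20 libraries was built with edgeR 4.0.16 under R 4.3.3. Library totals were scaled by TMM, low genes were removed with filterByExpr, and the quasi-likelihood test (robust, 4 groups) was adjusted over all genes tested by Benjamini-Hochberg, with 0.05 as the threshold. The p-values rest on the spread between these libraries, estimated for each gene. The common biological coefficient of variation over all genes was 29% (aorta) and 22.3% (kidney). Both libraries of each near-identical pair count as separate in the fits of 20 libraries. CPM is the count relative to the TMM-scaled total. 95% intervals came from the same fits. Scores were the mean log2 CPM of a list's tested genes (prior count 2), centred, and were added to the model. The fits were tested on simulated data.

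The 5 genes and all lists were chosen with earlier results of these data known. Besides the 5 genes, the genes named are the 3 most like each gene in aortas, up to 3 called genes per pathway list with the smallest adjusted p and the 3 most abundant markers per cell type list, and a few others where a sentence turns on them, chosen after their values were seen. Alternatives were DESeq2 1.42.0 size factors and Wald test, no filter, no robust estimation, a fold over 1.5 with over 5 CPM in addition, the near-identical libraries left out, the scores as covariates and each library left out. Plasmacytoid dendritic cell, macrophage and chondrocyte scores were added after seeing the data. Transcripts of the 5 genes were aligned to those of GENCODE M21 with blastn 2.17.0 in its megablast mode. Protein sequences were not used here, and the gene list made for Ect2l is not reported here.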

Additional observations from a re-analysis of the deposited data

Results flagged for a closer look

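Each of the 5 genes was checked in each of 8 groups of 5 libraries for a library whose gap to its neighbour exceeded 0.71 of the group's range (Dixon's test), and 3 of 40 checks found one, where chance would give 2. Ect2l was high in the KO HFD aorta R-17, at 2.05 CPM where the others had 0.740 to 1.04 CPM. Itih2 was low in the WT SFD aorta R-3, at 66.5 CPM where the others had 74.4 to 77.5 CPM. Cyp2f2 was low in the WT SFD kidney a17, at 4.25 CPM where the others had 5.79 to 6.31 CPM.

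Itih2 differed between the tissues in the direction of its diet effect. Its log2 difference between HFD and SFD was 0.33 in aortas, where every HFD library lay above every SFD library, and -0.87 in kidneys, where every HFD library lay below every SFD library. The difference between the tissues was not tested, because their tables were normalized separately.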

How the results depend on the processing

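Outside fits that left out 1 library, 22 of 385 compared values had the other sign under an alternative, each of them a genotype effect, interaction or slope that was not called in either fit, such as the aortic genotype effect of Cyp2f2 (-0.09 without the near-identical libraries). Of the 5 genes, 5 were called for diet in aortas, 0 without the near-identical libraries or with the plasmacytoid dendritic cell or macrophage score, 1 with the adipocyte score, 3 scores or the fold and CPM limits, 2 without a filter, 3 with the chondrocyte score and 4 with the lymphoid or stromal score. The count of genes called for diet in aortas (8) was 3 without a filter, 1 without the near-identical libraries, 1 with the plasmacytoid dendritic cell or the macrophage score, 51 with the DESeq2 Wald test and 4 with the fold and CPM limits, and 1 to 9 when 1 library was left out. It was 6 with the adipocyte or chondrocyte score, 7 with the stromal score or 3 scores and 9 with the lymphoid score. The 5 genes were chosen on this aortic contrast, so nothing is read from how many of them stayed called. The count for genotype in aortas (3) was 131 without the near-identical libraries, 27 with the lymphoid score, 6 with the stromal score, 45 with the DESeq2 Wald test and 0 with the adipocyte, plasmacytoid dendritic cell or macrophage score or 3 scores together, and 0 to 123 when 1 library was left out; in kidneys it was 1 with DESeq2 (0 otherwise). The renal diet count (2615) was 948 with the stromal score, 481 with 3 scores and 456 with the fold and CPM limits. Renal Cpxm2 lost its call at 0.94 with the adipocyte score, 0.18 with the stromal score and 0.31 with 3 scores, and at 1.27 under the fold and CPM limits because it stayed under 5 CPM. Aortic Cyp2f2 moved to -1.17 with 3 scores. The cause of these moves was not tested. A mesothelial score was not run, since 0 of its genes were tested. Counts under 20 per library limit Siglech and Ect2l in kidneys and Cyp2f2 in HFD aortas and in all KO SFD aortas except R-12.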

Other observations

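KO HFD aortas had 103 ± 20 CPM of Cpxm2 (SD, n = 5) and WT HFD aortas 80.9 ± 8.55 CPM, a log2 difference of 0.35 (95% interval 0.03 to 0.68, edgeR adjusted p 0.8), so it did not pass. Under SFD the Cpxm2 levels were 149 ± 5.75 CPM in KO and 143 ± 36.9 CPM in WT, with the WT libraries spread over 96.3 to 192 CPM and the KO libraries over 143 to 159 CPM.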
